A study of Canis lupus familiaris with 8 samples.

Results

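Schwann cells wrap the axons of peripheral nerves. Myelinating Schwann cells wind their membrane into compact myelin around single large axons, while non-myelinating ones hold bundles of thin axons. Sensory and sympathetic fibres run through the marrow spaces of alveolar bone, the part of the jaw around the tooth roots, and through the periodontal ligament, and their cell bodies lie in ganglia outside the bone. After a nerve is cut, Schwann cells beyond the cut are known to shut down myelin genes, switch to a repair state and re-form sheaths as axons grow back.

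A set of 8 genes of Schwann cells and the nerve sheath was followed in dog alveolar bone: CDH19, SOX10, ERBB3, S100B, NCAM1, MBP, PMP22 and PRX. They were chosen by name with earlier results of these data known, so counts of them beside shares of all genes are description and no test. Read were those probe sets (groups of short probes against the same transcript) whose single gene symbol in the platform annotation was a member. The highest mean was kept for each gene. All 8 were found among 15947 genes, each with 1 probe set. The lowest 25% of genes by mean level held S100B and no other member.

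Total RNA was measured on 8 Affymetrix whole-transcript arrays, 2 in each of 4 groups. Group C was sound bone around the roots of maxillary premolars, with no surgery named in the labels. Groups D2 and D6 were tissue that had regenerated in a surgical defect together with the bone next to it, 2 and 6 weeks after surgery as the digit in the group names was read. In group DT6, also read as 6 weeks, a tooth had in addition been protracted, that is, moved forward, into the defect. The labels name the species and no strain, age or genotype, and they tie no array to an animal and say nothing of pooling. The p-values therefore rest on array-to-array spread alone, part or all of which may be technical. The defect samples mix new tissue with old bone. In bulk RNA a smaller number of Schwann cells and less RNA per cell cannot be told apart.

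Levels are the deposited probe set values, read as log2 from their range of 0.91 to 14.5. Each difference is in log2, of 2 arrays against 2, ± the standard error (SE) that limma gives it, and p-values are Benjamini-Hochberg adjusted over all 15947 genes with a threshold of 0.05. The values of different probe sets are not comparable with each other, so levels were compared only within a gene across groups. Where differences or centred profiles of different genes are set side by side, how alike their probe sets respond is unknown. The arrays of a group correlated across genes with r between 0.974 and 0.986. Transcripts of other tissues were present in some arrays: genes of stratified oral epithelium in D2 array 2 and D6 array 1, and genes of airway and gland epithelium in both arrays of D2 and of DT6. Of the defining bone genes, COL1A1, the main collagen of bone, lay between 13.0 and 13.7 in all 8 arrays. DMP1, a matrix protein of osteocytes, split the arrays: it had 9.63 and 11.6 in C, 11.8 in D6 array 2 and 12.2 in DT6 array 1, and between 6.23 and 6.89 in the other 4.

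Transcripts of the sheath genes CDH19, MBP, PMP22 and PRX were higher in sound bone than in any defect sample, while those of SOX10, ERBB3, S100B and NCAM1 were not. For 4 of the 8 genes both C arrays lay above all 6 defect arrays, which 10.5% of all genes also did, and for 0 of the 8 did they lie below, as 12.8% of all genes did. The mean of C was the highest of the 4 group means for 6 of the 8 genes, against 35.0% of all genes. Because the 8 genes were chosen with earlier results of these data known, these shares test nothing. CDH19 fell in D2 and in D6, PMP22 fell in D2, and no other difference among the 8 genes passed the threshold in limma in any of the 6 comparisons. The 3 comparisons with C share the same C arrays and are not independent of each other.

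**Figure D1:**
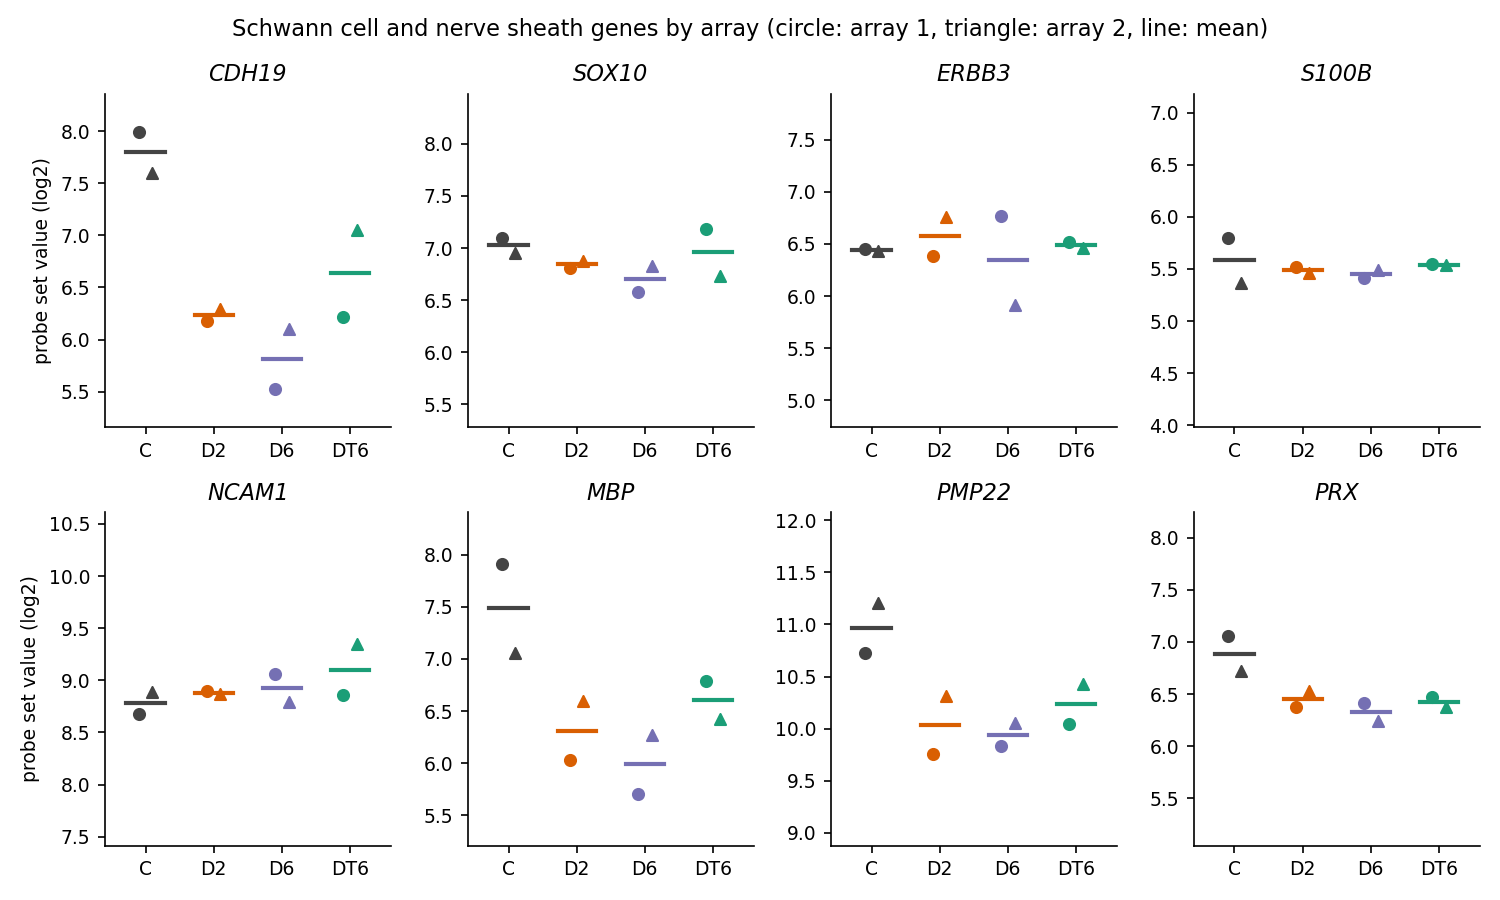
Probe set values (log2) of the 8 genes in each array, with circles for array 1, triangles for array 2 and a line at the mean of each group; each panel spans the same number of log2 units. The C arrays sit above all 6 defect arrays for CDH19, MBP, PMP22 and PRX, which does not hold for the other 4 genes.

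CDH19 encodes cadherin 19, an adhesion molecule of Schwann cell precursors and Schwann cells. Its values were 7.99 and 7.60 in C, 6.18 and 6.30 in D2, 5.53 and 6.10 in D6, and 6.21 and 7.05 in DT6. C was above every defect array, both D6 arrays were below both D2 arrays, and DT6 spanned from the level of D2 to 0.55 below the lower C array. CDH19 fell by 1.56 ± 0.29 in D2 against C (2.94-fold, adjusted p = 0.0150) and by 1.98 ± 0.29 in D6 against C (3.95-fold, adjusted p = 0.0202). In DT6 against C it differed by −1.16 ± 0.29 (adjusted p = 0.0765). It was also the only member past the threshold in limma's F test of any difference among the 4 groups (adjusted p = 0.0203), which 4.51% of all genes passed.

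The order of the group means of CDH19 was C, DT6, D2, D6, from 7.80 through 6.63 and 6.24 to 5.81. Neighbours in that order did not differ beyond the threshold: DT6 against D2 by 0.40 ± 0.29 (adjusted p = 0.940) and D6 against D2 by −0.42 ± 0.29 (adjusted p = 0.900). The calls of CDH19 ended when some single arrays were left out, while its difference kept its sign. Over the 8 leave-outs it stayed between −1.75 and −1.36 in D2 and between −2.27 and −1.70 in D6 against C. In D2 against C the difference was −1.36 without C array 1 (adjusted p = 0.114), −1.50 without D2 array 1 (adjusted p = 0.103) and −1.62 without D2 array 2 (adjusted p = 0.0684). In D6 against C it was −1.79 without C array 1 (adjusted p = 0.161), −2.18 without C array 2 (adjusted p = 0.0647) and −1.70 without D6 array 1 (adjusted p = 0.108). In DT6 against C it was −1.58 without DT6 array 2 (adjusted p = 0.0349), which passed.

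SOX10 is the transcription factor that founds the Schwann cell lineage and switches on its myelin genes, and it is also made by melanocytes and some gland cells. Its values were 7.10 and 6.95 in C, 6.81 and 6.88 in D2, 6.58 and 6.83 in D6, and 7.19 and 6.73 in DT6. The C arrays lay above those of D2 and D6 and between those of DT6. The difference from C was −0.18 ± 0.18 in D2 (adjusted p = 0.604), −0.32 ± 0.18 in D6 (adjusted p = 0.424) and −0.07 ± 0.18 in DT6 (adjusted p = 0.894). The 95% intervals of these differences ran from −0.59 to 0.23, from −0.73 to 0.09 and from −0.48 to 0.34, and so did not reach the size of the CDH19 difference in the same comparison. The SOX10 and CDH19 probe sets may respond unlike each other, so this compares measured values and not transcript amounts.

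ERBB3 is the receptor through which Schwann cells read neuregulin 1 on axons, and epithelia make it too. It had 6.45 and 6.43 in C, 6.39 and 6.76 in D2, 6.77 and 5.92 in D6, and 6.52 and 6.46 in DT6. Its highest defect values, 6.76 and 6.77, came from D2 array 2 and D6 array 1, the arrays with oral epithelium transcripts, whose part in them was not tested. Differences from C were 0.13 ± 0.26 in D2 (adjusted p = 0.811), −0.10 ± 0.26 in D6 (adjusted p = 0.903) and 0.05 ± 0.26 in DT6 (adjusted p = 0.949).

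S100B, a calcium-binding protein of glia that adipocytes and chondrocytes also make, was the member in the lowest 25% of genes. Its 8 values lay between 5.37 and 5.80, and both of those were C arrays. Its differences from C were −0.09 ± 0.18 in D2, −0.13 ± 0.18 in D6 and −0.04 ± 0.18 in DT6 (adjusted p = 0.807, 0.779 and 0.941). No background signal was used here, so how far such values lie above background is unknown.

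NCAM1, the neural cell adhesion molecule of non-myelinating and immature Schwann cells, is found on several other cell types as well. Its values were 8.68 and 8.88 in C, 8.90 and 8.87 in D2, 9.06 and 8.80 in D6, and 8.86 and 9.35 in DT6. The groups overlapped in each comparison with C, with differences of 0.10 ± 0.18 in D2 (adjusted p = 0.798), 0.15 ± 0.18 in D6 (adjusted p = 0.760) and 0.32 ± 0.18 in DT6 (adjusted p = 0.411).

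The remaining members belong to myelin. MBP, myelin basic protein, seals the inner faces of the myelin membrane. Its values were 7.91 and 7.06 in C, 6.03 and 6.60 in D2, 5.71 and 6.27 in D6, and 6.79 and 6.42 in DT6. C was above all defect arrays, although the SD of the C arrays, 0.60, was the largest of the 8 genes in sound bone. MBP differed from C by −1.17 ± 0.32 in D2 (adjusted p = 0.0580), −1.50 ± 0.32 in D6 (adjusted p = 0.0578) and −0.88 ± 0.32 in DT6 (adjusted p = 0.199), and did not pass. Without C array 2 the D2 difference was −1.60 (adjusted p = 0.0448), and without DT6 array 1 or DT6 array 2 the one in D6 had adjusted p = 0.0482 in each case.

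PMP22, peripheral myelin protein 22, is a membrane protein of compact myelin that fibroblasts and other cells also make. It had 10.73 and 11.20 in C, 9.75 and 10.31 in D2, 9.84 and 10.05 in D6, and 10.04 and 10.43 in DT6. Again every defect array lay below both C arrays. PMP22 fell by 0.93 ± 0.24 in D2 (1.90-fold, adjusted p = 0.0465), and differed by −1.02 ± 0.24 in D6 (adjusted p = 0.0726) and −0.73 ± 0.24 in DT6 (adjusted p = 0.158). The D2 call ended when any C, D2 or D6 array was left out. The difference was then between −1.21 without D2 array 2 (adjusted p = 0.0569) and −0.65 without D2 array 1 (adjusted p = 0.304), with −1.17 without C array 1 (adjusted p = 0.0824) and −0.69 without C array 2 (adjusted p = 0.197). Without D6 array 1 or D6 array 2 it stayed at −0.93 (adjusted p = 0.0592 and 0.0598). With the replicate number as a block PMP22 passed in D6 against C (adjusted p = 0.0279), and so it did without DT6 array 1 (adjusted p = 0.0498).

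PRX, periaxin, is a scaffold protein of myelinating Schwann cells that ties their outer membrane to the basal lamina through DRP2 and dystroglycan. Its values were 7.05 and 6.72 in C, 6.37 and 6.53 in D2, 6.41 and 6.24 in D6, and 6.48 and 6.37 in DT6. C was the highest group without overlap, and the defect groups lay close together. The differences were −0.44 ± 0.17 in D2, −0.56 ± 0.17 in D6 and −0.46 ± 0.17 in DT6 (adjusted p = 0.148, 0.135 and 0.192).

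**Figure D2:**
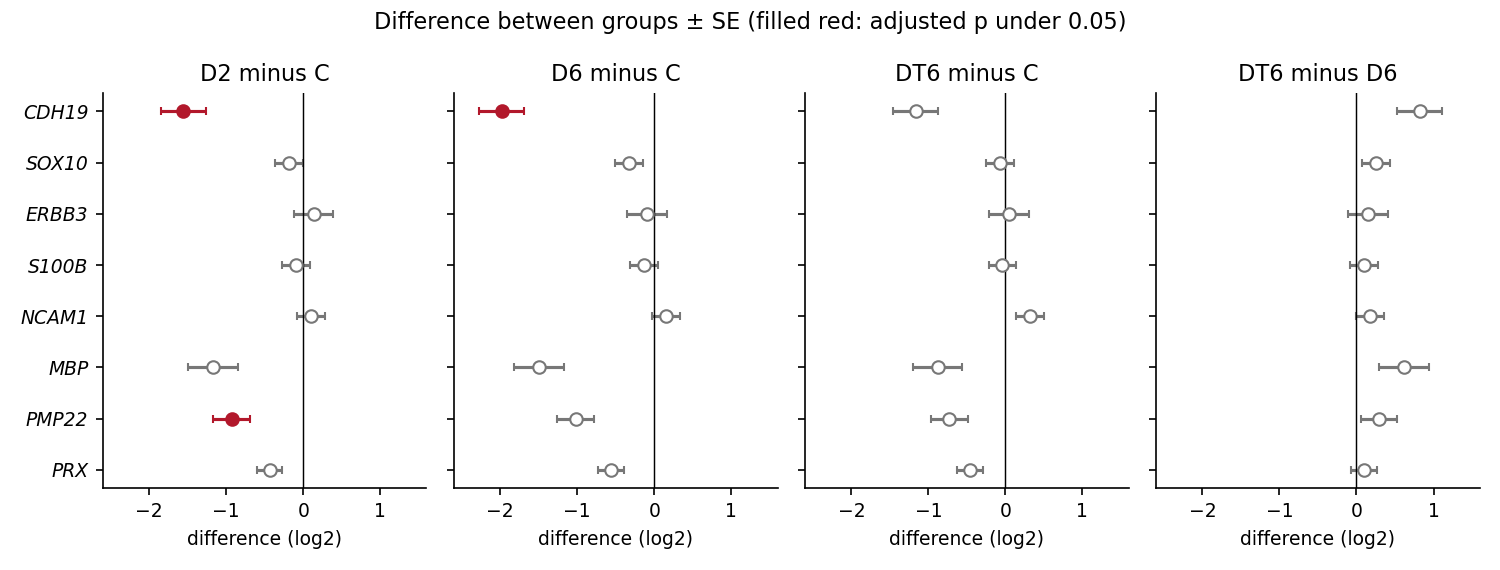
Differences between groups (log2, ± SE, 2 arrays against 2) for the 8 genes in the 3 comparisons with sound bone and in DT6 against D6, with filled red points past the threshold. CDH19, MBP, PMP22 and PRX lie to the left of 0 in each comparison with C, and all 8 genes lie to the right of 0 in DT6 against D6.

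Counted over the set, 2 of 8 members passed in D2 against C, where 8.40% of all genes did and 2.74% did so as lower, and 4 of 8 had an unadjusted p under 0.05, against 23.8% of all genes. In D6 against C it was 1 of 8, against 1.76% of all genes and 0.771% as lower, and 4 of 8 had an unadjusted p under 0.05, against 16.4%. In DT6 against C it was 0 of 8 in limma, against 3.04% of all genes, and 4 of 8 had an unadjusted p under 0.05, against 17.6% of all genes. The median difference of the 8 genes was −0.31 in D2, −0.44 in D6 and −0.26 in DT6 against C, where the median over all genes was −0.01, 0.01 and −0.01. In each of these comparisons 5 of the 8 had groups that did not overlap, against 56.3%, 48.6% and 41.6% of all genes, so that count alone sets the members little apart. Beside CDH19, MBP, PMP22 and PRX, these included SOX10, lower than C, in D2 and D6, and ERBB3, higher than C, in DT6.

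The comparison of D6 with D2 sets 6 weeks of healing against 2. Of 15 airway and gland genes 11 were called lower in D6, with a list median of −4.30. The part of this tissue in the differences was not tested. For none of the 8 genes did the groups differ past the threshold in limma, while 1.68% of all genes passed, and 0 had an unadjusted p under 0.05, against 7.88% of all genes. Of the members 7 were lower at 6 weeks, against 45.7% of all genes, with a median of −0.13 beside 0.02 over all genes. CDH19 was the only one whose arrays did not overlap, against 43.3% of all genes. MBP differed by −0.32 ± 0.32 and PMP22 by −0.09 ± 0.24, with 95% intervals from −1.05 to 0.40 and from −0.63 to 0.45.

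The comparison of DT6 with D6 sets defects with tooth movement against defects without it at 6 weeks. Tissue content differed as well. Of 15 airway and gland genes 10 were called higher in DT6, with a list median of 3.50, and D6 array 1 held oral epithelium transcripts. The part of tissue content in the differences was not tested. All 8 genes had a higher mean in DT6, while 54.1% of all genes had a lower one. The median was 0.22 beside −0.02 over all genes, but 0 passed in limma, where 1.52% of all genes did. The 8 differences come from the same arrays and are not independent of each other. CDH19 differed by 0.82 ± 0.29 (adjusted p = 0.511) and was the only member with an unadjusted p under 0.05 in limma, as 6.52% of all genes had. MBP differed by 0.62 ± 0.32 (adjusted p = 0.940), PMP22 by 0.29 ± 0.24 and SOX10 by 0.26 ± 0.18 (both adjusted p = 1.00). The DT6 and D6 arrays did not overlap for CDH19, MBP and S100B, against 29.0% of all genes. The CDH19 difference leaned on the arrays left in: it was 0.40 without DT6 array 2 and 1.24 without DT6 array 1, where its adjusted p was lowest (adjusted p = 0.0746). DT6 against D2 gave 0 of 8 members past the threshold or with an unadjusted p under 0.05, and 0 of all genes passed in limma, with 6.22% at an unadjusted p under 0.05. The arrays did not overlap for 1 member, S100B, against 32.8% of all genes. Differences there ran from −0.08 ± 0.26 for ERBB3 to 0.40 ± 0.29 for CDH19.

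Other genes of the sheath were read from 5 lists. In the list of peripheral myelin, 4 of 19 measured genes fell in D2 against C, 4 in D6 and 2 in DT6, and 0 rose in any of the 3. Of all genes 2.74%, 0.771% and 0.746% fell in these comparisons. The lists, too, were chosen with earlier results of these data known, so such counts are description and no test. The list medians were −0.20, −0.19 and −0.14. For 7 of the 19 both C arrays lay above all 6 defect arrays, as for 10.5% of all genes.

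UGT8, the enzyme that makes the myelin glycolipid galactosylceramide, showed the largest difference in this list. It had 7.13 and 7.34 in C, 5.44 and 5.52 in D2, 4.93 and 5.77 in D6, and 6.52 and 5.40 in DT6. UGT8 fell by 1.75 ± 0.37 in D2 (adjusted p = 0.0228) and by 1.89 ± 0.37 in D6 (adjusted p = 0.0426), and differed by −1.28 ± 0.37 in DT6 (adjusted p = 0.112). CNTN1, contactin 1, an adhesion molecule of axons and glia at the edges of nodes of Ranvier, had 6.48 and 6.84 in C and between 5.08 and 5.71 in the 6 defect arrays. It fell by 1.45 ± 0.19 in D2 (adjusted p = 0.00356), 1.38 ± 0.19 in D6 (adjusted p = 0.0162) and 0.98 ± 0.19 in DT6 (adjusted p = 0.0331).

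DRP2, the dystrophin-related partner of PRX, had 7.29 and 7.39 in C, 6.14 and 6.56 in D2, 6.01 and 6.22 in D6, and 6.52 and 6.16 in DT6. DRP2 fell in all 3 comparisons with C, by 0.99 ± 0.19, 1.22 ± 0.19 and 1.00 ± 0.19 (adjusted p = 0.0180, 0.0214 and 0.0323). PLLP, plasmolipin, a myelin membrane protein, had 8.42 and 8.45 in C, 7.24 and 7.63 in D2, 7.51 and 7.42 in D6, and 7.72 and 8.09 in DT6. PLLP fell by 1.00 ± 0.17 in D2 and 0.97 ± 0.17 in D6 (adjusted p = 0.0109 and 0.0319), and differed by −0.53 ± 0.17 in DT6 (adjusted p = 0.156). Other genes of the list stayed closer to C in D2 and D6. In DT6, GAL3ST1 (−0.58 ± 0.19) and GLDN lay further from C than PLLP. MAG, the myelin-associated glycoprotein that faces the axon, lay between 4.94 and 5.69 in all arrays, and GLDN, gliomedin, which gathers sodium channels at nodes and was chosen after its values were seen, differed from C by 0.68 ± 0.18 in D6 and 0.70 ± 0.18 in DT6 (adjusted p = 0.0963 and 0.0797).

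These calls also leaned on the C arrays. CNTN1 in D2 against C passed whichever of the 8 arrays was left out, with adjusted p at most 0.0339. In D2 against C, UGT8, DRP2 and PLLP each lost the call without C array 1, C array 2 or D2 array 1, and UGT8 also without D2 array 2, with adjusted p up to 0.128, 0.147 and 0.104. In D6 against C, UGT8, CNTN1, DRP2 and PLLP each lost it without C array 1, C array 2 or D6 array 1, with adjusted p up to 0.208, 0.121, 0.154 and 0.181. UGT8 also lost it there without D2 array 1 or D2 array 2, and PLLP without D6 array 2. With no variance trend or with the replicate block (adjusted p = 0.0661) UGT8 lost it there as well. In DT6 against C, CNTN1 lost it without any C, D2 or DT6 array and DRP2 without C array 1, C array 2 or DT6 array 2, with adjusted p up to 0.136 and 0.156. Over these 8 leave-outs the differences kept their sign: UGT8 ran from −1.86 to −1.64 in D2 and from −2.31 to −1.46 in D6, CNTN1 from −1.62 to −1.27, from −1.58 to −1.19 and from −1.16 to −0.81 in D2, D6 and DT6, and DRP2 from −1.20 to −0.78, from −1.33 to −1.12 and from −1.17 to −0.82.

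**Figure D3:**
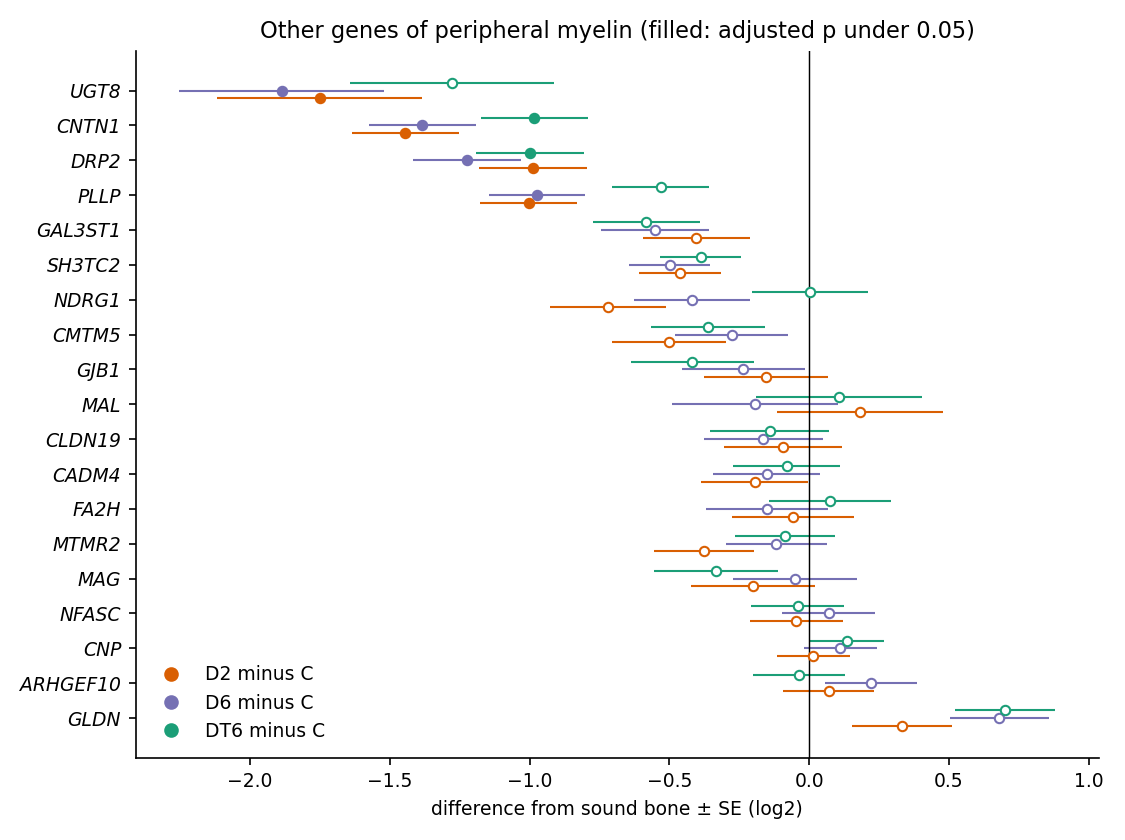
Differences from sound bone (log2, ± SE, 2 arrays against 2) of the 19 other genes of peripheral myelin in D2, D6 and DT6, sorted by the D6 difference, with filled points past the threshold. UGT8, CNTN1, DRP2 and PLLP stand furthest to the left of 0 in D2 and D6, and GLDN furthest to the right in all 3.

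In the list of Schwann cell lineage and signal genes, 1 of 21 rose and 1 fell in D2 against C, 1 fell in D6 and 1 fell in DT6, with medians of −0.14, −0.05 and 0.06. Of all genes 8.40%, 1.76% and 3.04% passed in these comparisons, in either direction. The gene that fell was PLEKHB1, a membrane-binding protein with a pleckstrin homology domain, by 1.06 ± 0.20, 1.15 ± 0.20 and 0.96 ± 0.20 (adjusted p = 0.0159, 0.0308 and 0.0412), from 7.53 and 7.42 in C to between 6.25 and 6.78 in the defect arrays. It lost its call without either C array in each of the 3, with adjusted p up to 0.134, 0.200 and 0.223. Its call in D2 also ended without D2 array 1, that in D6 without any D2 or D6 array, and that in DT6 without any D2 or D6 array or DT6 array 2, or with the replicate block (adjusted p = 0.0621). The gene that rose was SOX2, a factor of immature Schwann cells that airway and oral epithelium also make. It rose by 1.10 ± 0.16 in D2 (adjusted p = 0.00565) and fell again by 0.86 ± 0.16 in D6 against D2 (adjusted p = 0.0341). Its D2 values of 7.41 and 7.15 stood above the 6.17 and 6.19 of C, and without D2 array 1 the D2 call ended (adjusted p = 0.0658). NGFR, the low-affinity neurotrophin receptor of immature and repair Schwann cells, lay between 7.09 and 7.45 in all arrays. EGR2, the factor that drives myelination, differed from C by −0.24 ± 0.22, −0.39 ± 0.22 and −0.23 ± 0.22 (adjusted p = 0.588, 0.434 and 0.663), and GFRA3, a receptor for a glial neurotrophic factor, lay between 5.30 and 5.92.

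Genes of the repair Schwann cell gave 1 call among 12 measured genes, in D2 against C, where 8.40% of all genes passed in either direction. TNC, tenascin C, which fibroblasts and bone cells also make, rose in D2 by 0.91 ± 0.24 (adjusted p = 0.0499), and the call ended without C array 1, C array 2, D2 array 1 or D2 array 2 (adjusted p up to 0.268) or with the replicate block (adjusted p = 0.0755). The defining repair genes GFAP, SHH and GDNF lay between 5.002 and 6.393. BDNF, a neurotrophin, differed from C by −1.50 ± 0.52 in DT6 (adjusted p = 0.178) and did not pass. In the list of perineurial and endoneurial sheath genes 0 changed in D6 or DT6 in limma. In D2, where 8.40% of all genes passed, 1 of 13 rose. It was NID1, nidogen 1 of basement membranes, by 0.62 ± 0.14 (adjusted p = 0.0329), and leaving out either C or either D2 array ended that call (adjusted p up to 0.194). So did the mean of all probe sets of a gene, leaving out D2 array 2 and D6 array 1 together, and the replicate block (adjusted p = 0.0611 with the block), over a range of 0.48 to 0.70 and up to adjusted p = 0.320 in all alternatives. CLDN1, a tight junction protein of perineurium and of epithelia, differed by −1.80 ± 0.47 in D6 (adjusted p = 0.0968). The defining genes LAMA2, a laminin of nerve and muscle basement membrane, and COL28A1, a collagen of peripheral nerve, did not pass in any comparison with C, with −0.46 ± 0.30 and −0.70 ± 0.22 in D2 (adjusted p = 0.408 and 0.0872).

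Of 21 neuron and axon genes 1 rose in D2, 0 changed in D6 in limma and 1 fell in DT6, with medians of −0.12, −0.14 and −0.24. The shares of all genes that passed against C, in either direction, were 8.40%, 1.76% and 3.04%. The defining genes NEFL, NEFM, PRPH, STMN2 and SNAP25 lay between 4.44 and 5.73, low values that did not pass in any comparison. UCHL1, a ubiquitin hydrolase abundant in neurons, rose by 1.22 ± 0.20 in D2 (adjusted p = 0.00917) and fell by 1.17 ± 0.20 in D6 against D2 (adjusted p = 0.0231). Without C array 1 or D2 array 1 the rise did not pass (adjusted p up to 0.0900). PIEZO2, a mechanically gated ion channel of touch and stretch receptors, fell by 2.26 ± 0.44 in DT6 (adjusted p = 0.0337), from 9.15 and 9.37 in C to 7.44 and 6.55. Its call ended without either C array, either D2 array or DT6 array 2 (adjusted p up to 0.176), over a range of −2.71 to −1.81. PIEZO2 was also lower than C in D2 by −1.51 ± 0.44 and in D6 by −1.64 ± 0.44, neither of which passed (adjusted p = 0.0731 and 0.105).

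Several of the 8 genes are made by other cell types, whose marker lists were read in the same arrays. Beside the counts that follow, 8.40% of all genes passed in D2, 1.76% in D6 and 3.04% in DT6 against C, in either direction. Melanocytes share SOX10, ERBB3 and S100B: of 10 melanocyte genes 0 passed in limma in any of the 6 comparisons, and the defining genes TYR, DCT, PMEL, MLANA and TYRP1 lay between 2.56 and 6.04. Skeletal muscle shares NCAM1: of 14 genes 0 passed in limma in any comparison, and the mean of the list ran from 5.10 to 5.50. T and NK cells share NCAM1: CD2, a T cell adhesion molecule, rose in D2 by 1.75 ± 0.28 and in D6 by 1.80 ± 0.28 (adjusted p = 0.00760 and 0.0209) and was the only one of 12 to pass in a comparison with C. Endothelial genes, with which nerves run, included 2 of 10 that fell in D2, TEK and EMCN, and 0 that passed in D6 or DT6 in limma. Cartilage shares S100B: 2 of 10 genes rose and 2 fell in D2, and 1 fell in D6 and in DT6, which was the matrix protein MATN3 in each. Of 11 bone genes 2 fell in D2, 1 fell in D6 and 0 passed in DT6 in limma. MEPE, a matrix protein of osteocytes, fell in both D2 and D6.

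Adipocyte genes were lower than C in D2 and D6, as CDH19, MBP, PMP22 and PRX were. The list median of the difference from C was −0.94 in D2, −1.16 in D6 and −0.20 in DT6. Over the 8 genes of the set the median was −0.31, −0.44 and −0.26. In DT6, CDH19, MBP, PMP22 and PRX differed by −1.16, −0.88, −0.73 and −0.46, each less than in D6. The mean of 11 measured adipocyte genes was 8.19 and 8.10 in C, 7.31 and 7.30 in D2, 7.34 and 6.48 in D6, and 7.66 and 8.50 in DT6. The order of the group means was that of CDH19, and DT6 array 2, the defect array with the highest CDH19, also had the highest adipocyte mean of all arrays. Within D6, array 2 had the lower adipocyte mean, the higher CDH19, MBP and PMP22, and the lower PRX. Within DT6, array 1 had the lower adipocyte mean, the higher MBP and PRX, and the lower CDH19 and PMP22. Each of these sets a single array beside another. In this list 4 of 11 genes fell in D2 against C, 3 fell in D6, 0 passed in DT6 in limma, and 2 rose in DT6 against D6. Of all genes 2.74% fell in D2 and 0.771% in D6 against C, and 1.52% passed in DT6 against D6 in either direction. PLIN1, a coat protein of fat droplets, and LEP, leptin, were among those that fell in both D2 and D6. Those that rose were DGAT2 by 2.12 ± 0.38 (adjusted p = 0.0278) and GPD1 by 1.99 ± 0.39 (adjusted p = 0.0459), both enzymes of triglyceride synthesis. The part of adipose marrow in the sheath gene differences was not tested.

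Epithelial transcripts were raised, from 1 list or the other, in 5 of the 6 defect arrays and in neither C array. The mean of 14 oral epithelium genes was 8.08 in D2 array 2 and 9.44 in D6 array 1 and between 5.20 and 5.76 in the other 6 arrays. Without those 2 arrays CDH19 fell by 1.62 in D2 and differed by −1.70 in D6 (adjusted p = 0.0708). MBP then fell by 1.46 in D2 (adjusted p = 0.0423), and PMP22 differed by −1.21 in D2 (adjusted p = 0.0549). The mean of 15 airway and gland genes was 9.02 and 8.59 in D2, 8.70 and 8.55 in DT6, 5.91 and 5.20 in D6, and 5.17 and 5.31 in C. Of these genes 14 rose in D2 and 11 in DT6, led in both by BPIFA1, which airway epithelium secretes, by 6.98 ± 0.54 and 7.44 ± 0.54 (adjusted p = 0.000365 and 0.000320). Of all genes 8.40% and 3.04% passed there, in either direction. The part of epithelial transcripts in the sheath gene differences was not tested beyond these values, and airway and gland transcripts were in both arrays of D2 and DT6, so they could not be left out.

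**Figure D4:**
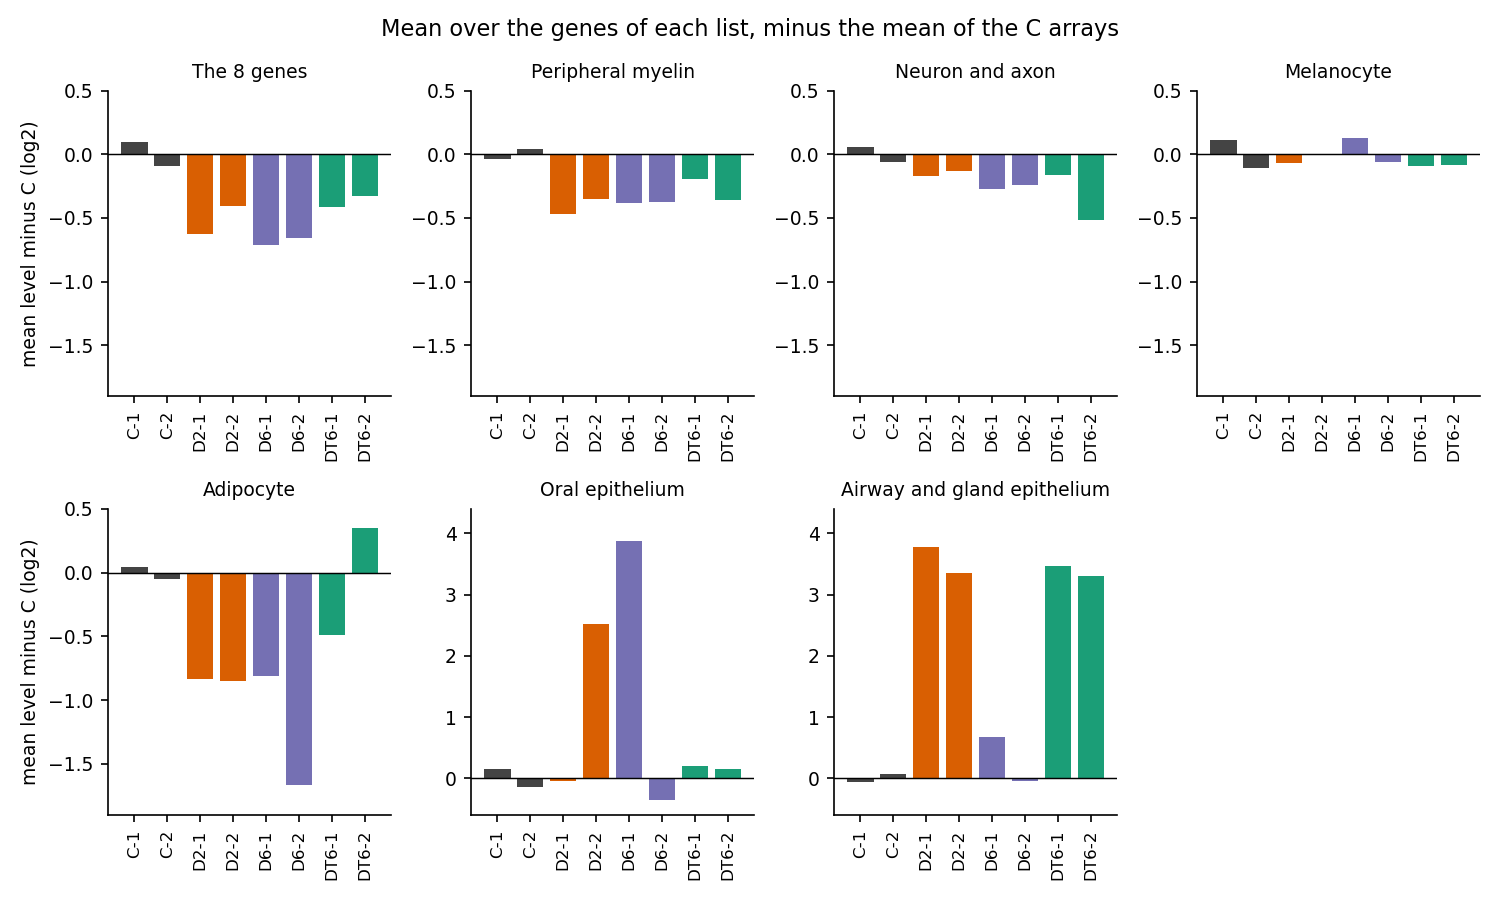
Mean log2 level of the 8 genes and of 6 other gene lists in each array, minus the mean of the C arrays; the panels of oral and of airway and gland epithelium have a wider axis. The mean of the 8 genes lies between −0.71 and −0.33 in the defect arrays, which does not hold for each gene: the NCAM1 mean was above C in each defect group. The adipocyte mean is below C in every defect array except DT6 array 2, and oral or airway epithelial genes are raised in every defect array except D6 array 2.

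Likeness of pattern was measured as the root mean square difference between the profiles of 2 genes over the 8 arrays, each centred on its own mean, for the 3 members whose values spanned over 1 log2 unit. Among the members, MBP was the nearest to CDH19, at 0.39, and PRX the nearest to PMP22, at 0.34. Over the whole table the nearest to CDH19 were CCDC68 at 0.23, MLIP at 0.27, LMO3 at 0.27, the clock repressor NR1D1 at 0.27 and neuritin, NRN1, at 0.30. CCDC68 had 8.22 and 7.84 in C and 6.37 to 6.86 in the defect arrays other than DT6 array 2, where it had 7.53, so it shared the high value of CDH19 there. The nearest to MBP were NRN1 at 0.22, OR2L5C at 0.23, the synaptic adhesion gene NLGN4X at 0.25, ADGRB3 at 0.27 and the phosphodiesterase PDE8B at 0.27. The nearest to PMP22 were OR10AG65 at 0.12, the proteoglycan gene KERA at 0.13, PEG3 at 0.15, PLD5 at 0.16 and SVIP at 0.17. The 2 olfactory receptor genes in these lists had low values, from 1.58 to 4.10.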

How the data were processed

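Total RNA of dog alveolar bone was labelled for Affymetrix whole-transcript arrays, per the labels' protocols. The deposited values, read here as log2 because they run from 0.91 to 14.5, cover 22708 probe sets on 8 arrays, and array medians of 6.25 to 6.31 were taken to mean normalized arrays. Summarisation, background correction, normalization and log base are steps not given in the sources used here. The number of arrays limits the precision.

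Of the probe sets, 370 had several gene symbols and 5793 had none, and both kinds were dropped. Of the rest, the probe set with the highest mean was kept per gene, with no filter on dim genes. No build is named, so no coordinates are given. A single limma 3.58.1 fit (R 4.3.3; lmFit on 4 group means, eBayes with a variance trend, 4 residual degrees of freedom) used all 8 arrays; tests were two-sided. The fit was tested on simulated normal data without transcripts of other tissues. In D2 against C and D6 against C it recovered 77.3% and 76.3% of 2-fold changes, and 99.35% and 99.25% of 4-fold changes. Of its calls 7.05% and 6.62% were false. Members and 14 lists were chosen with earlier results of these data known. The rule for lists was to name the defining genes and up to 4 genes that passed, by size of change, or else up to 2 by size of difference. The text follows it for the nerve lists in part, and gives other cell types mainly as counts and list means. Like genes are the 5 nearest with a named symbol. Of 208 list entries 193 were measured. Alternatives were each array left out, D2 array 2 and D6 array 1 left out together, no variance trend, quantile normalization, no dimmest 25% of genes, mean of probe sets, only the groups compared, and a replicate block.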

Additional observations from a re-analysis of the deposited data

How the results depend on the processing

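With 2 arrays a group the calls are fragile, and where an array is left out the remaining array of its group is assumed to vary like the other groups. Among the 8 genes, the count past the threshold in D2 against C was 2, with 0 to 2 when single arrays were left out and 1 with no variance trend. In D6 against C it was 1, with 0 to 3 when single arrays were left out, 0 without D2 array 2 and D6 array 1 together, and 2 with the replicate block. In DT6 against C it was 0, with 0 to 1 when single arrays were left out and 1 with only the arrays of the 2 groups compared. The F test gave 1, with 0 to 1 when single arrays were left out and 2 with the replicate block. D6 against D2, DT6 against D6 and DT6 against D2 gave 0 under all 15 alternatives. The cause of these changes was not tested.

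The labels state no animal or day shared by arrays of the same replicate number. Deviations of same-numbered arrays correlated between −0.26 and 0.19. Such correlations cannot decide whether arrays share an animal, so whether the numbers pair the arrays is unknown.

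Over all genes, leaving out single arrays gave 310 to 1940 calls in D2 against C (1339 with all arrays), 0 to 683 in D6 against C (280), 127 to 719 in DT6 against C (484), 145 to 315 in D6 against D2 (268), 154 to 318 in DT6 against D6 (243), 0 to 24 in DT6 against D2 (0) and 251 to 1343 in the F test (719). The count of 0 in D6 against C came without C array 1. Without D2 array 2 and D6 array 1 together, D2 against C gave 534 and D6 against C 49. Without the dimmest 25% of genes, D6 against D2 gave 173 and DT6 against D6 144, and with only the 2 groups compared DT6 against D6 gave 147.

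Of the differences recomputed for single members, 28 changed sign, and none of those had passed. When single arrays were left out, S100B ran from −0.31 to 0.12 in D2, −0.35 to 0.079 in D6 and −0.25 to 0.17 in DT6 against C. ERBB3 ran from −0.053 to 0.32 in D2 and −0.52 to 0.32 in D6 against C, −0.66 to 0.19 in D6 against D2, −0.27 to 0.57 in DT6 against D6 and −0.27 to 0.10 in DT6 against D2. NCAM1 ran from −0.0020 to 0.20 in D2 against C, −0.086 to 0.18 in D6 against D2, −0.070 to 0.42 in DT6 against D6 and −0.023 to 0.47 in DT6 against D2. SOX10 ran from −0.29 to 0.16 in DT6 against C and −0.11 to 0.34 in DT6 against D2. PMP22 ran from −0.37 to 0.19 in D6 against D2 and −0.078 to 0.48 in DT6 against D2, CDH19 from −0.023 to 0.82 and PRX from −0.11 to 0.051 in DT6 against D2. Without D2 array 2 and D6 array 1 together, D6 against D2 gave 0.24 for MBP, 0.30 for PMP22, 0.018 for SOX10 and −0.10 for NCAM1, D2 against C gave −0.053 for ERBB3, and DT6 against D2 gave 0.10 for ERBB3 and 0.051 for PRX.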
